A study of Mus musculus with 11 samples.

Results

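The genes described here are 10 integrin subunits found in focal adhesions, other than the pair that forms the hemidesmosomal integrin alpha6beta4. They are *Itgb1*, *Itga2*, *Itga3*, *Itga5*, *Itga8*, *Itga9*, *Itgav*, *Itgb5*, *Itgb6* and *Itgb8*. They were chosen by name and not by a measured value, but with earlier results of these data known. Ensembl identifiers were matched to Ensembl 96 symbols. All 10 were found among the 55536 Ensembl genes of the deposited tables, and all 10 were among the 20307 genes that passed the filter on low counts.

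RNA was sequenced from cells sorted from the dorsal epidermis of male CD4Cre R26-tdT mice on a C57Bl6/N background. In these mice a Cre recombinase under control of the *Cd4* promoter switches on the red fluorescent protein tdTomato (tdT) for good, so tdT+ cells express CD4 or descend from cells that did, and the tdTneg cells carry the same alleles. The 4 sorted groups were tdT+CD49f+CD34+ (3 libraries), tdTnegCD49f+CD34+ (3 libraries), tdT+CD49f+CD34+SCA-1+ (3 libraries) and tdTnegCD49f+CD34+SCA-1+ (2 libraries). The first pair was sorted as SCA-1 negative, each library held the cells of 2 pooled mice, mice were 29 weeks old for replicate 1 and 32 weeks old for replicates 2 and 3, and no group had been treated. CD49f, CD34 and SCA-1 are the surface antigens used for the sort, and CD49f is integrin alpha6 itself, the product of *Itga6*.

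Integrins are pairs of an alpha and a beta subunit that span the plasma membrane, bind extracellular matrix outside the cell and connect to actin inside it through talin, kindlin and other linkers. Beta1 pairs with alpha2 (collagen), alpha3 (laminin-332), alpha5 (fibronectin), alpha8 (nephronectin) and alpha9 (tenascin C and other ligands), whereas alpha v pairs with beta1 and also with beta5 (vitronectin), beta6 and beta8, of which the last pair bind latent TGF-beta. In the epidermis alpha3beta1 and alpha6beta4 hold basal keratinocytes to the basement membrane, and alpha5beta1, alpha v beta6 and alpha9beta1 are known from wounds.

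Total counts ranged from 17409131 to 46542177 per library. All libraries held high levels of the keratinocyte markers *Krt5* and *Krt14*, the CD49f+CD34+SCA-1+ libraries held more *Ly6a* (the gene for SCA-1) than the CD49f+CD34+ libraries, and by the edgeR test described below 7 of 7 bulge markers were called lower there. In the same test 4 of 6 markers of interfollicular epidermis (3 of 5 without *Ly6a*, which the sort fixes), 6 of 6 of T cells, 5 of 6 of Langerhans cells and 1 of 5 of keratinocytes were called higher, 2 of 6 of melanocytes and 1 of 5 of smooth muscle lower, and none of 6 of endothelial cells or 6 of fibroblasts by edgeR or DESeq2 (2 and 0 at an unadjusted p-value under 0.05). Some libraries stood apart. *Cd34* was at 22.3 to 35.6 CPM in the 3 tdT+CD49f+CD34+SCA-1+ libraries although these cells were sorted as CD34+, against 319 and 382 CPM in the tdTnegCD49f+CD34+SCA-1+ libraries and 467 to 1129 CPM in CD49f+CD34+ libraries (CPM, normalized counts scaled to a library of 1000000). The summed level of 6 endothelial markers was 1606 and 1652 CPM in the 2 tdTnegCD49f+CD34+SCA-1+ libraries and 418 CPM in the library labelled tdT+CD49f+CD34+ replicate 2, whereas it was between 6.06 and 89.9 CPM in the other 8 libraries, with no marker at 0 in any library. Finally, 1 row outside the Ensembl genes, scaled to total counts alone, was at 133 to 307 CPM in 5 tdT+ libraries but at 2.05 CPM in the library labelled tdT+CD49f+CD34+ replicate 2, against 2.54 to 4.89 CPM in the 5 tdTneg libraries. With this library left out, the same calls were made for the 10 genes in all 6 comparisons by edgeR, and the log2 fold changes between the populations, or their adjusted p-values, are given without it gene by gene. In sorted bulk samples, fewer cells of a type and less RNA per cell cannot be told apart.

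The 10 genes spanned a wide range of levels. Per kilobase of exon, averaged over 11 libraries, the level was 117 ± 18.9 CPM per kb (SD, n = 11) for *Itgb1* and 63.2 ± 17.2 CPM per kb for *Itga3*. *Itgb5* followed at 23.6 CPM per kb, *Itgav* at 15.4, *Itga5* at 14.6, *Itga2* at 11.4, *Itgb8* at 8.15 and *Itgb6* at 7.87 CPM per kb. At the lower end stood *Itga9* at 1.57 and *Itga8* at 0.329 CPM per kb. *Itgb1* exceeded *Itga3* and *Itga3* exceeded *Itgb5* in 11 of 11 libraries, and *Itgb5* exceeded *Itgav* in 10 of 11. Neighbours from *Itgav* down to *Itgb6* changed places between libraries: *Itgav* exceeded *Itga5* in 7 of 11, *Itga5* exceeded *Itga2* in 4 of 11, *Itga2* exceeded *Itgb8* in 7 of 11 and *Itgb8* exceeded *Itgb6* in 6 of 11 libraries. In the tdTnegCD49f+CD34+SCA-1+ libraries the order was different, with *Itga5* next after *Itga3* at a mean of 36.8 CPM per kb.

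**Figure D1:**
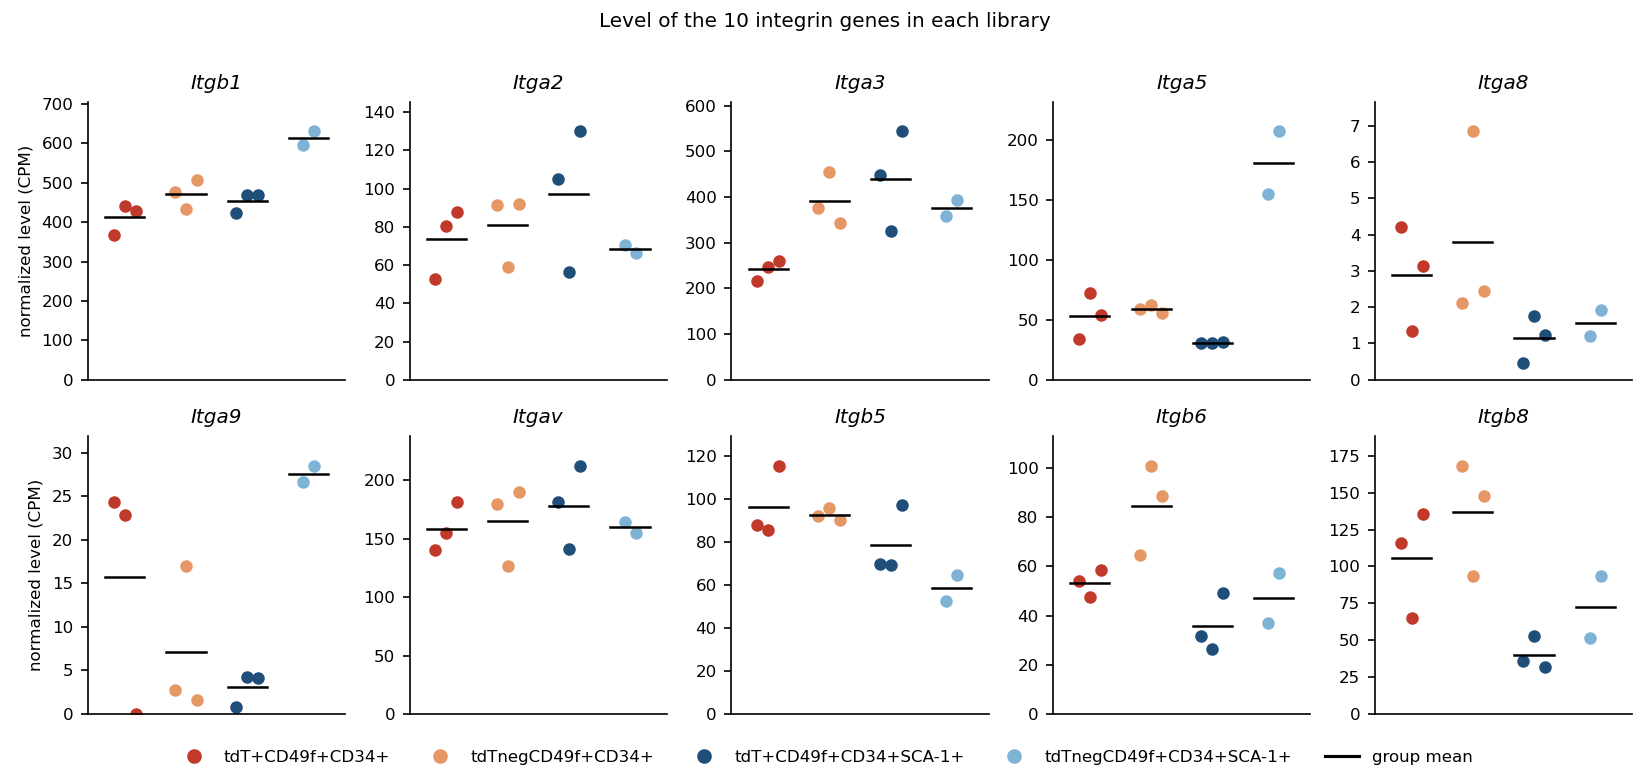
Normalized level (CPM) of each of the 10 integrin genes (vertical axes from 0, each gene on its own scale) in 11 libraries; points are libraries, colours are the 4 sorted groups and black lines are group means. *Itga5* stands at 155 and 208 CPM in the tdTnegCD49f+CD34+SCA-1+ libraries and at no more than 72.1 CPM elsewhere, whereas *Itgav* overlaps between all 4 groups.

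The question of the design was whether the CD49f+CD34+SCA-1+ population differed from CD49f+CD34+ bulge cells, and whether tdT+ cells differed from tdTneg cells within each. A gene was called when edgeR's quasi-likelihood F-test over all 20307 genes gave a p-value under 0.05 after Benjamini-Hochberg adjustment and the absolute log2 fold change was over 1. Between the populations, as the mean over tdT status, 1 of 10 integrins was called, *Itgb8*, at a lower level in the CD49f+CD34+SCA-1+ population, and 11.6% of all genes tested were called. At any fold, 3 of 10 had an adjusted p-value under 0.05 (*Itgb5*, *Itgb6* and *Itgb8*, all lower), against 19.3% of all genes. None of the 10 had 5 CD49f+CD34+SCA-1+ libraries wholly above or below the 6 CD49f+CD34+ libraries, which 10.8% of all genes had. By DESeq2 and by edgeR with RLE size factors, too, *Itgb8* was the 1 called member. The median log2 fold change of the 10 was -0.08, and that of all genes tested was -0.09.

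Within tdT+ cells 1 of 10 was called between the populations (*Itgb8*, lower), and 8.45% of all genes were. Within tdTneg cells 1 of 10 was called (*Itga5*, higher), and 4.74% of all genes were. Between tdT+ and tdTneg cells, none of the 10 was called in CD49f+CD34+ cells by edgeR or DESeq2 (which gave no p-value for *Itga9*), and 0.00985% of all genes were called. In edgeR 2 of 10 had an unadjusted p-value under 0.05 there, against 8.42% of all genes. In CD49f+CD34+SCA-1+ cells 1 of 10 was called (*Itga5*, lower in tdT+), against 2.31% of all genes, and 4 of 10 had 3 tdT+ libraries that did not overlap the 2 tdTneg libraries, against 33% of all genes. The effect of tdT differed between the populations for 1 of 10 (*Itga5*), and for 0.389% of all genes. These shares of all genes depend on single libraries: over the omission of each, the number of genes called was 1160 to 2510 between the populations, 1174 to 2233 within tdT+, 55 to 1300 within tdTneg, 0 to 7 between tdT+ and tdTneg CD49f+CD34+ cells, 97 to 700 between tdT+ and tdTneg CD49f+CD34+SCA-1+ cells, and 1 to 376 for the difference of effects. The counts of 1160 and 55 came without tdTnegCD49f+CD34+SCA-1+ replicate 1 and those of 97 and 1 without its replicate 2. These comparisons share groups of libraries and are not independent of each other.

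**Figure D2:**
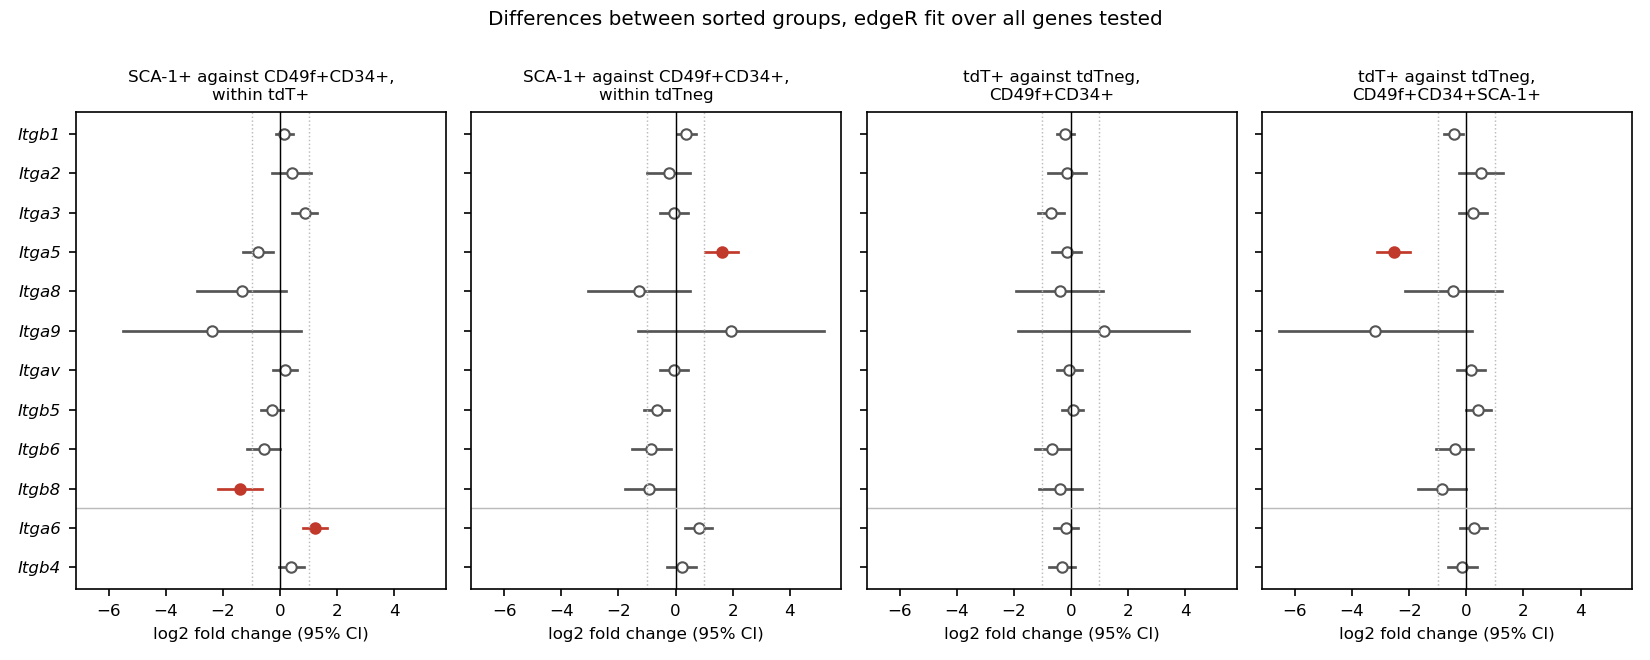
Log2 fold change (point) with its 95% confidence interval (line) from edgeR for the 10 integrins and, under the grey line, *Itga6* and *Itgb4*, in 4 comparisons; filled red points were called and dotted lines mark a log2 fold change of 1 in either direction. *Itga5* is called in opposite directions in the second and the fourth panel, *Itgb8* in the first, and the intervals of *Itga9* are the widest of the 10 in all 4 panels.

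*Itga5* encodes alpha5, the subunit that makes beta1 a fibronectin receptor. It lies on the minus strand of chromosome 15 (chr15:103344286-103366763, GRCm38), and *Itgb1*, the gene of its only partner, on the plus strand of chromosome 8 (chr8:128685654-128733200). The 200 bases before the RefSeq start of both genes are shown because 1 partner carried the largest called difference among the 10 and the other was called in no comparison. The sequences are RefSeq's (GRCm38.p6), 5′ to 3′ on the strand of the gene, at chr15:103366792-103366991 and chr8:128685454-128685653, with matches to 6 searched motifs in capitals.
Itga5: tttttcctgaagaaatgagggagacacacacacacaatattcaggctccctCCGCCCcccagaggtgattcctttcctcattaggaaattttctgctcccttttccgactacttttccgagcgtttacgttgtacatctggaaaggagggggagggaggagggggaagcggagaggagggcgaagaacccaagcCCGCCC
Itgb1: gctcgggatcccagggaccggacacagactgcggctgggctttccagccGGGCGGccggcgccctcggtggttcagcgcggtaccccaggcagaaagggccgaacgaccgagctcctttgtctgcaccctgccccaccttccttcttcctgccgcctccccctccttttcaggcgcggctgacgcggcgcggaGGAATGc

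On both strands, the searched motifs were the GC box GGGCGG, the AP-1 site TGANTCA, the cyclic AMP response element TGACGTCA, the core promoter box TATAAA, the TEAD site GGAATG and the RUNX site TGTGGT, and no match overlapped another. *Itga5* held 2 GC boxes, from -149 to -144 and from -6 to -1 relative to the start, and *Itgb1* held 1 GC box from -151 to -146 and 1 TEAD match from -7 to -2. Of 32851 windows of the same length, 31.1% held the GC box and 10.1% the TEAD letters. Neither window held the letters of AP-1, the cyclic AMP response element, the core promoter box or RUNX, which 5.48%, 1.47%, 9.96% and 11.2% of all windows held.

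*Itga5* was at 34, 72.1 and 53.8 CPM in the 3 tdT+CD49f+CD34+ libraries, at 59.3, 62.6 and 55.8 CPM in the tdTnegCD49f+CD34+ libraries, at 31.1, 31.1 and 31.3 CPM in the tdT+CD49f+CD34+SCA-1+ libraries and at 155 and 208 CPM in the tdTnegCD49f+CD34+SCA-1+ libraries. The tdTnegCD49f+CD34+SCA-1+ libraries were above all others, the tdT+CD49f+CD34+SCA-1+ libraries were below all others, and the CD49f+CD34+ groups overlapped. Within CD49f+CD34+SCA-1+ cells *Itga5* was 5.83-fold lower in tdT+ than in tdTneg cells (log2 fold change -2.54, SE 0.26, edgeR adjusted p = 0.00137). Within tdTneg cells it was 3.06-fold higher in CD49f+CD34+SCA-1+ than in CD49f+CD34+ cells (log2 fold change 1.615, SE 0.25, edgeR adjusted p = 0.00994). Within tdT+ cells the difference had the opposite sign, -0.775 with a 95% interval from -1.29 to -0.26, and did not pass the test (edgeR adjusted p = 0.0565; -0.495 and 0.148 on omission of the library labelled tdT+CD49f+CD34+ replicate 2; on omission of replicate 1 of that group -1.02 and 0.00816, called). In CD49f+CD34+ cells the log2 fold change of tdT+ against tdTneg was -0.15 with a 95% interval from -0.67 to 0.36, and -0.435 (edgeR adjusted p = 0.699) when replicate 2 of tdT+CD49f+CD34+ was omitted.

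The effect of tdT on *Itga5* differed between the populations by -2.39 on the log2 scale (SE 0.35, edgeR adjusted p = 0.0202), and by -2.11 (adjusted p = 0.0219) on omission of the library labelled tdT+CD49f+CD34+ replicate 2. This call was lost when any of 6 other libraries was left out, with adjusted p-values of 0.0756 and 0.0767 without tdTnegCD49f+CD34+ replicates 1 and 3, 0.0683 and 0.0594 without tdT+CD49f+CD34+SCA-1+ replicates 1 and 3, and 0.056 and 0.151 without tdTnegCD49f+CD34+SCA-1+ replicates 1 and 2. The call within tdTneg cells was lost without either tdTnegCD49f+CD34+SCA-1+ library (adjusted p = 0.063 and 0.0593), where the library that remained was assumed to vary like the other groups. The call between tdT+ and tdTneg CD49f+CD34+SCA-1+ cells was kept without each of the 11 libraries, between -2.74 and -2.36 on the log2 scale and with adjusted p-values up to 0.015.

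Endothelial markers were highest in the 2 libraries with the highest *Itga5*, and so was the sum of the Langerhans cell markers. That sum was 655 and 776 CPM there and at most 422 CPM elsewhere. *Pecam1*, which encodes the junctional protein CD31, was at 687 and 727 CPM in the tdTnegCD49f+CD34+SCA-1+ libraries, at 1.05 to 32.9 CPM in 8 others and at 175 CPM in the library with the label tdT+CD49f+CD34+ replicate 2. The endothelial cadherin gene *Cdh5* was at 363 and 420 CPM, at 0.385 to 20.1 CPM and at 87.3 CPM in the same order. Of the 6 endothelial markers, *Egfl7* and *Tek* were called higher within tdTneg cells in the CD49f+CD34+SCA-1+ population, and the same 2 were called lower in tdT+ than tdTneg CD49f+CD34+SCA-1+ cells. The part of endothelial or Langerhans cells in the *Itga5* level was not tested. In the 3 tdT+CD49f+CD34+SCA-1+ libraries, where *Itga5* was lowest, the 6 endothelial markers summed to 29.2, 56.3 and 57.6 CPM. In the 6 CD49f+CD34+ libraries the sum was 75.3, 418 and 6.06 CPM in tdT+ and 27.4, 89.9 and 34.4 CPM in tdTneg cells.

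The tested genes whose pattern over the 11 libraries was nearest to that of *Itga5*, by the root-mean-square difference of centred log2 CPM, were *Rhoj* (0.239) and *Piezo1* (0.272), where the SD of *Itga5* itself was 0.923. *Rhoj* encodes a small GTPase known from endothelial cells, and *Piezo1* a mechanically gated ion channel. *Rhoj* was at 78.5 and 95.7 CPM and *Piezo1* at 205 and 262 CPM in the tdTnegCD49f+CD34+SCA-1+ libraries, above every other library. In the remaining 9 libraries they were at 10.3 to 40.7 CPM and at 58.8 to 145 CPM.

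**Figure D3:**
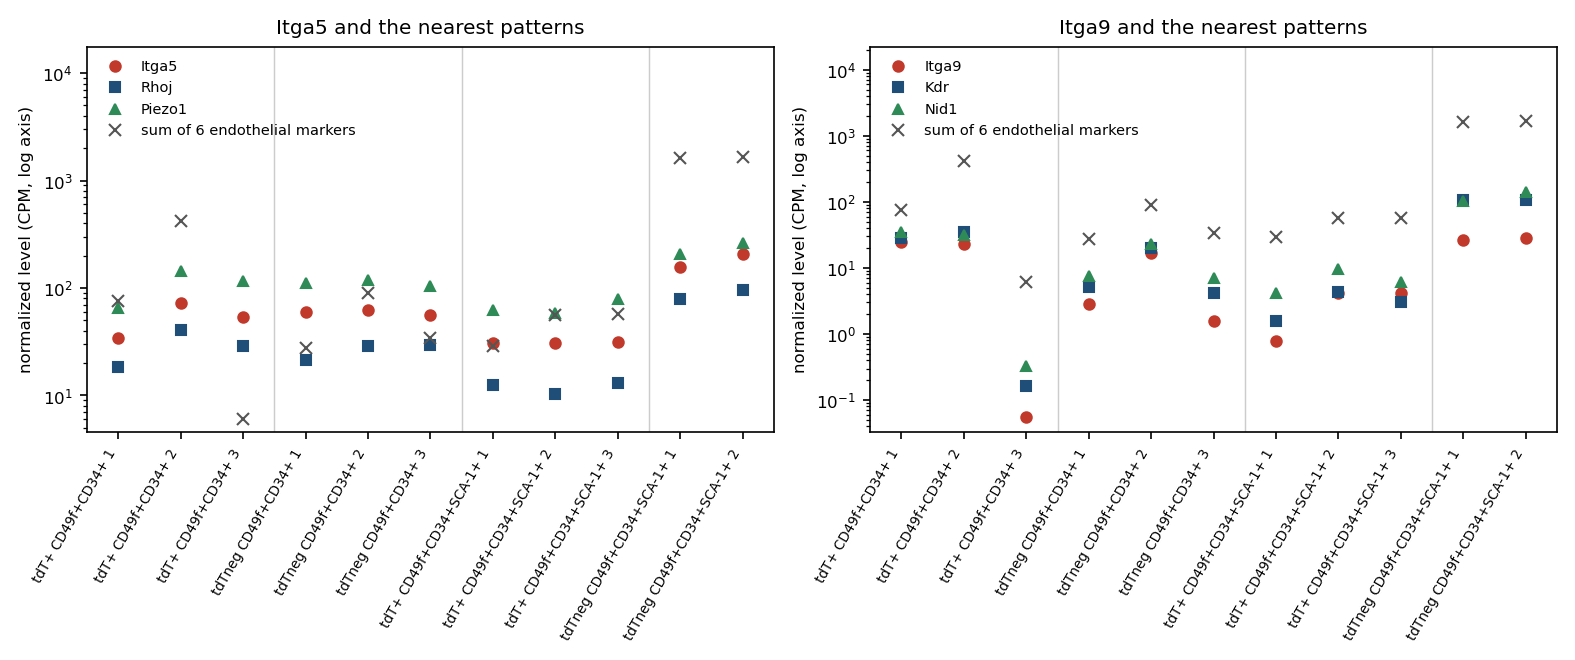
Normalized level (CPM, log axis) in each of the 11 libraries, ordered by sorted group and replicate number, of *Itga5* with *Rhoj* and *Piezo1* (left) and of *Itga9* with *Kdr* and *Nid1* (right); crosses give the sum of 6 endothelial markers. The crosses reach 1606 and 1652 CPM in the tdTnegCD49f+CD34+SCA-1+ libraries, where *Itga5* and *Itga9* are also at their highest. *Itga9* is at 24.3 and 22.9 CPM in tdT+CD49f+CD34+ replicates 1 and 2, with crosses at 75.3 and 418 CPM. In tdTnegCD49f+CD34+ replicate 2 it is at 17.1 CPM, with the cross at 89.9 CPM.

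*Itgb1*, the common beta subunit, was at 367, 441 and 429 CPM in tdT+CD49f+CD34+, at 478, 433 and 508 CPM in tdTnegCD49f+CD34+, at 423, 469 and 468 CPM in tdT+CD49f+CD34+SCA-1+ and at 595 and 630 CPM in tdTnegCD49f+CD34+SCA-1+ libraries. It was highest in the libraries in which *Itga5* was highest, and the other 3 groups overlapped. It was called in none of the 6 comparisons: the log2 fold change was 0.26 between the populations (95% interval 0.03 to 0.48, edgeR adjusted p = 0.102; 0.28 and 0.111 when tdT+CD49f+CD34+ replicate 2 was omitted) and -0.435 between tdT+ and tdTneg CD49f+CD34+SCA-1+ cells (95% interval -0.77 to -0.10, edgeR adjusted p = 0.196). The summed level per kb of the 6 alpha genes, as a ratio to that of *Itgb1*, was 0.797 ± 0.027 (SD, n = 3) in tdT+CD49f+CD34+, 0.947 ± 0.13 (n = 3) in tdTnegCD49f+CD34+, 1.03 ± 0.26 (n = 3) in tdT+CD49f+CD34+SCA-1+ and 0.871 ± 0.040 (n = 2) in tdTnegCD49f+CD34+SCA-1+ cells.

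*Itga3* encodes the laminin-332 receptor subunit of basal keratinocytes and lies on the minus strand at chr11:95044474-95076801 (GRCm38). It was at 217, 248 and 261 CPM in tdT+CD49f+CD34+, at 377, 456 and 344 CPM in tdTnegCD49f+CD34+, at 448, 325 and 544 CPM in tdT+CD49f+CD34+SCA-1+ and at 358 and 395 CPM in tdTnegCD49f+CD34+SCA-1+ libraries. The 3 tdT+CD49f+CD34+ libraries were below the 8 others, which overlapped. Within tdT+ cells *Itga3* was 1.82-fold higher in CD49f+CD34+SCA-1+ cells (log2 fold change 0.86, SE 0.20, edgeR adjusted p = 0.0198), which is under the fold threshold, and within tdTneg cells the log2 fold change was -0.06 (95% interval -0.55 to 0.43). In CD49f+CD34+ cells the log2 fold change of tdT+ against tdTneg was -0.70 (unadjusted p = 0.00529, edgeR adjusted p = 0.353), and the effect of tdT differed between the populations by 0.92 (edgeR adjusted p = 0.236). Neither passed the test, nor did they on the omission described next (-0.72 and 0.94, adjusted p = 0.575 and 0.358). On omission of the library labelled tdT+CD49f+CD34+ replicate 2 its log2 fold change within tdT+ cells was 0.88 (adjusted p = 0.05), and over all single omissions it ranged from 0.68 to 1.01 with adjusted p-values from 0.00896, called, without tdT+CD49f+CD34+SCA-1+ replicate 2 to 0.0712 without tdT+CD49f+CD34+ replicate 1.

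Among the 6 alpha genes, *Itga3* held the largest share of the summed level per kb in every group, from 50.4% ± 0.82 (SD, n = 2) in tdTnegCD49f+CD34+SCA-1+ to 67.4% ± 0.49 (n = 3) in tdT+CD49f+CD34+SCA-1+ cells. The share of *Itga5* was 5.78% ± 1.5 (n = 3) in tdT+CD49f+CD34+SCA-1+ and 28.0% ± 3.3 (n = 2) in tdTnegCD49f+CD34+SCA-1+ cells, and 13.2% ± 3.5 and 11% ± 0.065 (n = 3 each) in tdT+ and tdTneg CD49f+CD34+ cells. The log2 ratio of *Itga5* to *Itga3* moved by -1.54 between the populations within tdT+ and by 1.65 within tdTneg cells. Pooled over tdT status its difference was -0.215 (exact permutation test, two-sided, p = 0.734, adjusted p = 0.856 over 7 ratios).

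**Figure D4:**
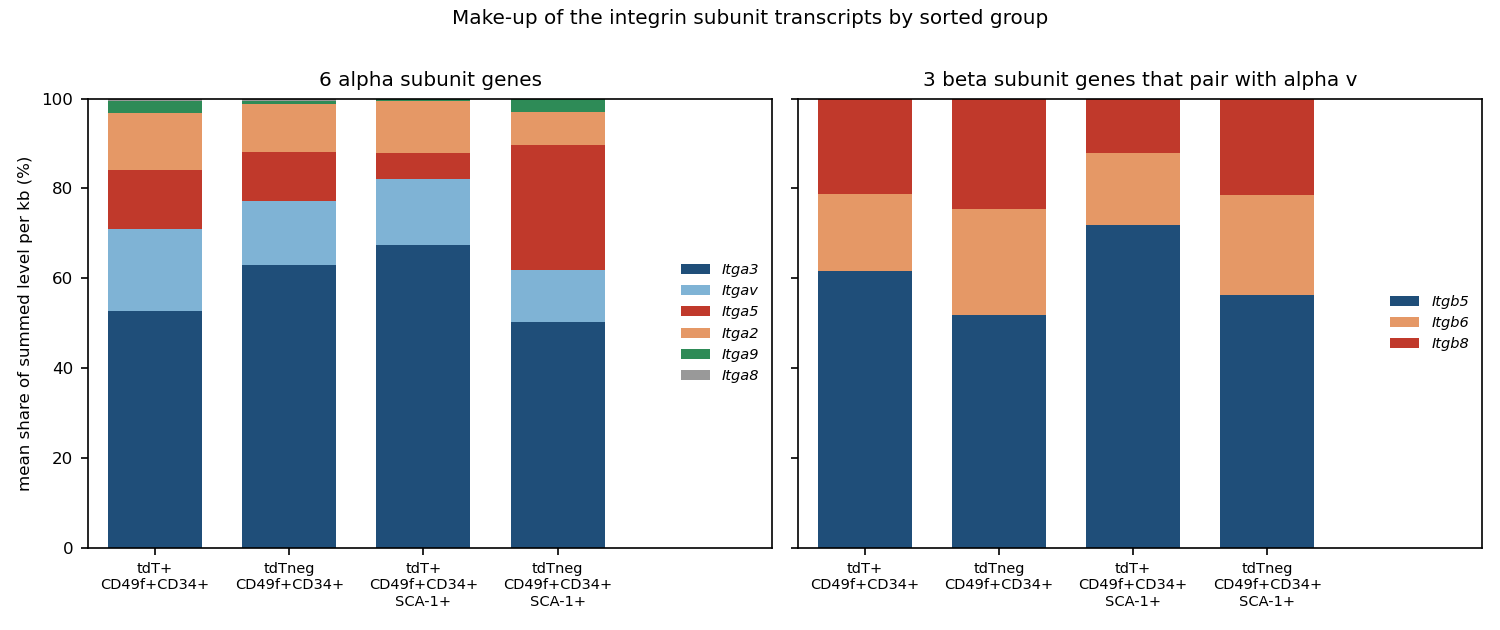
Mean share (percent) of each alpha gene in the summed level per kb of 6 alpha genes (left) and of each beta gene in the summed level per kb of *Itgb5*, *Itgb6* and *Itgb8* (right), by sorted group (n = 3, 3, 3 and 2 libraries). The red *Itga5* segment is 28.0% in tdTnegCD49f+CD34+SCA-1+ and 5.78% in tdT+CD49f+CD34+SCA-1+ cells, and the red *Itgb8* segment is smallest, at 12.2%, in tdT+CD49f+CD34+SCA-1+ cells.

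*Itga2* (chr13:114833081-114932100, minus strand), the gene of the collagen receptor subunit, ranged from 52.6 to 130 CPM and overlapped between all 4 groups. Its log2 fold change between the populations was 0.08 (edgeR adjusted p = 0.842; 0.11 and 0.797 when tdT+CD49f+CD34+ replicate 2 was omitted). *Itgav* (chr2:83724397-83806916, plus strand), the shared partner of beta5, beta6 and beta8, ranged from 126 to 212 CPM and also overlapped between all groups, with a log2 fold change of 0.06 between the populations (edgeR adjusted p = 0.82; 0.05 and 0.874 when tdT+CD49f+CD34+ replicate 2 was omitted). A stretch of 634 bases, 5.9% of the exon length of *Itgav*, is shared with the antisense gene *Gm13684*. The strand setting of the counting is not given in the sources used here, so reads on that stretch cannot be assigned to either gene. None of the 6 comparisons called either gene.

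*Itga8* (chr2:12106632-12301922, minus strand), known from mesenchymal cells such as the arrector pili muscle of hair follicles, was near the lower end of detection, with 17 to 259 counts per library. It ranged from 1.34 to 6.84 CPM in CD49f+CD34+ and from 0.453 to 1.92 CPM in CD49f+CD34+SCA-1+ libraries, and the groups overlapped. The log2 fold change was -1.31 (SE 0.53, edgeR adjusted p = 0.111), and -1.48 (adjusted p = 0.084) when tdT+CD49f+CD34+ replicate 2 was omitted. A stretch of 372 bases, 5.05% of its exon length, is shared with the antisense gene *E030013I19Rik*.

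*Itga9* (chr9:118606690-118901003, plus strand), a subunit known from keratinocytes at wound edges and from lymphatic endothelium, had the largest spread over the 11 libraries of the 10 genes (SD 2.52 of log2 CPM). It was at 24.3, 22.9 and 0.055 CPM in tdT+CD49f+CD34+, at 2.81, 17.1 and 1.58 CPM in tdTnegCD49f+CD34+, at 0.772, 4.2 and 4.18 CPM in tdT+CD49f+CD34+SCA-1+ and at 26.7 and 28.5 CPM in tdTnegCD49f+CD34+SCA-1+ libraries. Replicate 3 of tdT+CD49f+CD34+ held 1 count, and 3 CD49f+CD34+ libraries (tdT+ replicates 1 and 2 and tdTneg replicate 2) stood above the other 3. The fold changes had SEs from 1 to 2.02 on the log2 scale, and none passed the test (edgeR adjusted p = 0.378 for tdT+ against tdTneg CD49f+CD34+SCA-1+ cells, with a log2 fold change of -3.19 and a 95% interval from -6.57 to 0.19). None passed when tdT+CD49f+CD34+ replicate 2 was omitted either, with adjusted p-values from 0.421 to 0.992.

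The genes nearest to *Itga9* in pattern were *Kdr* (root-mean-square difference 0.727), which encodes a VEGF receptor of endothelial cells and is on the endothelial list, and *Nid1* (0.736), which encodes the basement membrane linker nidogen 1. *Kdr* was at 28.8, 35.4 and 0.165 CPM in tdT+CD49f+CD34+, at 5.22, 20.0 and 4.19 CPM in tdTnegCD49f+CD34+, at 1.57, 4.25 and 3.04 CPM in tdT+CD49f+CD34+SCA-1+ and at 106 and 106 CPM in tdTnegCD49f+CD34+SCA-1+ libraries. It was thus high and low in the same CD49f+CD34+ libraries as *Itga9*. *Kdr* was named because its pattern was nearest, and it does not stand for the rest of the endothelial list. The fibronectin gene *Fn1* was at 1817, 894 and 1103 CPM in the 3 CD49f+CD34+ libraries with high *Itga9* and at 29.5 to 34.9 CPM in the other 3, and the vitronectin gene *Vtn* was at 973, 437 and 511 CPM against 0.289 to 2.75 CPM. *Fn1* and *Vtn* were singled out after their values had been seen, and the part of other cell types in these levels was not tested.

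*Itgb5*, *Itgb6* and *Itgb8*, with *Itgb1* the genes of beta partners of alpha v, are described next. Of these 4, *Itgb1* did not pass the test between the populations, and *Itgb8* alone also passed the fold threshold. *Itgb8* (chr12:119158022-119238802, minus strand), whose product with alpha v releases active TGF-beta, was at 116, 65.0 and 136 CPM in tdT+CD49f+CD34+, at 168, 93.8 and 148 CPM in tdTnegCD49f+CD34+, at 35.9, 52.8 and 31.7 CPM in tdT+CD49f+CD34+SCA-1+ and at 51.5 and 93.4 CPM in tdTnegCD49f+CD34+SCA-1+ libraries. The 3 tdT+CD49f+CD34+SCA-1+ libraries were below all CD49f+CD34+ libraries, and tdTnegCD49f+CD34+SCA-1+ replicate 2 lay within the range of the CD49f+CD34+ libraries. *Itgb8* was 2.23-fold lower as the mean over tdT status (log2 fold change -1.15, SE 0.26, edgeR adjusted p = 0.0138). It was 2.63-fold lower within tdT+ cells (log2 fold change -1.39, SE 0.35, edgeR adjusted p = 0.0279), and within tdTneg cells its log2 fold change was -0.92 (edgeR adjusted p = 0.213). The difference of these effects was -0.48 with an SE of 0.51 and did not pass the test (edgeR adjusted p = 0.763).

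On omission of the library labelled tdT+CD49f+CD34+ replicate 2, *Itgb8* differed by -1.28 as the mean over tdT status (edgeR adjusted p = 0.00675) and by -1.65 within tdT+ cells (adjusted p = 0.0151), and the difference of effects was -0.73 (adjusted p = 0.62). The call was lost without tdTnegCD49f+CD34+SCA-1+ replicate 1, with a log2 fold change of -0.98 and an adjusted p-value of 0.0809. With the replicate number as a block it was kept as the mean over tdT status (adjusted p = 0.037) and lost within tdT+ cells (adjusted p = 0.0541). Within tdT+ cells it was lost, too, without tdT+CD49f+CD34+ replicate 1 or 3 or tdT+CD49f+CD34+SCA-1+ replicate 1 or 3, with adjusted p-values of 0.0774, 0.0658, 0.0883 and 0.0964. The 7 bulge markers summed to 8067 to 14990 CPM in CD49f+CD34+ and to 3331 to 5419 CPM in CD49f+CD34+SCA-1+ libraries, and the part of the difference in bulge cells in the *Itgb8* level was not tested.

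*Itgb6* (chr2:60598292-60722643, minus strand), an epithelial subunit that also activates TGF-beta, was at 54.0, 47.5 and 58.6 CPM in tdT+CD49f+CD34+, at 64.5, 101 and 88.6 CPM in tdTnegCD49f+CD34+, at 31.8, 26.4 and 49.2 CPM in tdT+CD49f+CD34+SCA-1+ and at 37.1 and 57.4 CPM in tdTnegCD49f+CD34+SCA-1+ libraries. The tdTnegCD49f+CD34+ libraries were above all others, and the other groups overlapped. Between the populations the log2 fold change was -0.71 (SE 0.20, edgeR adjusted p = 0.0346), under the fold threshold, and -0.75 (adjusted p = 0.0431) when tdT+CD49f+CD34+ replicate 2 was omitted. *Itgb5* (chr16:33829665-33949338, plus strand), the vitronectin receptor subunit, was at 85.8 to 116 CPM in CD49f+CD34+ libraries and at 70.0, 69.4 and 97.2 CPM in tdT+CD49f+CD34+SCA-1+ and 52.8 and 64.9 CPM in tdTnegCD49f+CD34+SCA-1+ libraries. Its log2 fold change was -0.475 (SE 0.13, edgeR adjusted p = 0.0314), also under the fold threshold (-0.515 and 0.0326 on the same omission), and tdT+CD49f+CD34+SCA-1+ replicate 3 overlapped the CD49f+CD34+ libraries.

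The make-up of these 3 beta subunits was compared as ratios. *Itgb5* held the largest share of their summed level per kb in each group, from 51.9% ± 2.4 (SD, n = 3) in tdTnegCD49f+CD34+ to 71.7% ± 2.0 (n = 3) in tdT+CD49f+CD34+SCA-1+ cells, and the share of *Itgb8* was between 12.2% ± 4.7 (n = 3) in tdT+CD49f+CD34+SCA-1+ and 24.5% ± 6.8 (n = 3) in tdTnegCD49f+CD34+ cells. The log2 ratio of *Itgb8* to *Itgb5* was lower by 0.79 in CD49f+CD34+SCA-1+ libraries, at -0.50 ± 0.83 (SD, n = 5) against 0.29 ± 0.47 (n = 6), and did not pass the exact permutation test (two-sided p = 0.0779, adjusted p = 0.439 over 7 ratios, with 0.00216 as the smallest p the design allows). It was lower by 1.06 within tdT+ and by 0.27 within tdTneg cells, and by 0.93 over both when tdT+CD49f+CD34+ replicate 2 was omitted. The other 6 ratios had adjusted p-values from 0.439 to 0.892 in the same exact test.

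The remaining members had near neighbours in pattern as well. *Slc25a29* and *Nfil3* were nearest to *Itgb6* (root-mean-square difference 0.0984 and 0.221), *Etaa1* and *Enah* to *Itgb8* (0.224 and 0.228), *Pacsin3* and *Pink1* to *Itgb5* (0.0762 and 0.113) and *Rsbn1l* and *Btbd7* to *Itgav* (0.0606 and 0.0866). *Sgsm2* and *Dexi* were nearest to *Itga3* (0.177 and 0.183), *Mgat4b* and *Ctps* to *Itgb1* (0.101 for both), *Mrgbp* and *Trp53bp2* to *Itga2* (0.137 and 0.155) and *Tlcd2* and *Dlx1* to *Itga8* (0.449 and 0.463). All were taken over 11 libraries, and *Enah* encodes an actin regulator of focal adhesions.

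*Itga6* and *Itgb4*, the subunits of alpha6beta4, are given for reference. *Itga6* was at 386 to 614 CPM in CD49f+CD34+ and at 931 to 1275 CPM in CD49f+CD34+SCA-1+ libraries, without overlap, and was 2.03-fold higher (log2 fold change 1.02, SE 0.14, edgeR adjusted p = 0.00112; 1.05 and 0.00223 when tdT+CD49f+CD34+ replicate 2 was omitted). Its product CD49f was a sorting antigen in all 4 groups. *Itgb4* overlapped between the populations, with a log2 fold change of 0.305 (edgeR adjusted p = 0.183).

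Of the other 17 integrin subunits, 4 were called higher and 1 was called lower in the CD49f+CD34+SCA-1+ population, with a median log2 fold change of 0.57. Of all genes tested 4.77% were called higher and 6.79% lower in this comparison, 11.6% together, with a median of -0.09. *Itgae* and *Itgb7*, which together form the E-cadherin receptor of intraepithelial T cells, were at 0.755 to 10.4 and 0.804 to 9.26 CPM in CD49f+CD34+ libraries and at 13.4 to 173 and 13.4 to 102 CPM in CD49f+CD34+SCA-1+ libraries. The groups did not overlap for either gene, and the log2 fold changes were 3.94 and 3.76 (edgeR adjusted p = 0.000128 and 0.000148). The other called genes were *Itga6*, *Itgam* (2.84) and, lower, *Itga4* (-1.76), of which *Itgam*, a subunit of myeloid cells, and *Itga4*, known from leukocytes and other cells, were named after their values had been seen. *Itga4* was called lower within tdT+ cells (log2 fold change -3.205, edgeR adjusted p = 0.00109) and was not called within tdTneg cells. By edgeR 0 of 6 Langerhans cell markers were called higher within tdT+ and 4 of 6 within tdTneg cells. For T cell markers it was 5 of 6 in both. Of all genes 2.91% and 3.29% were called higher in these comparisons. As the mean over tdT status, all 6 T cell markers were called higher in CD49f+CD34+SCA-1+ cells. Their sum was 25.8 to 102 CPM in CD49f+CD34+, 446 to 1070.2 CPM in tdT+CD49f+CD34+SCA-1+ and 162 and 174 CPM in tdTnegCD49f+CD34+SCA-1+ libraries, with none at 0. By edgeR *Itgae* was also the 1 called integrin among the 17 between tdT+ and tdTneg CD49f+CD34+SCA-1+ cells (log2 fold change 2.85, edgeR adjusted p = 0.0158), where 3 of 6 T cell markers were called higher in tdT+, whereas DESeq2 called 2 of the 17 higher and 2 lower. There edgeR called 2.31% of all genes and DESeq2 6.48% of those with an adjusted p-value. The part of T cells in these levels was not tested.

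Of 25 integrin ligands, 24 were tested, 7 were called lower and none was called higher in the CD49f+CD34+SCA-1+ population by edgeR, with a median log2 fold change of -0.69, or 29.2% called lower against 6.79% of all genes tested. At an unadjusted p-value under 0.05, 4 were higher and 12 lower, and DESeq2 called 0 higher and 9 lower, where 14.7% and 19.7% of all genes passed in edgeR without adjustment and DESeq2 called 16.8% of the genes to which it gave an adjusted p-value. When tdT+CD49f+CD34+ replicate 2 was omitted, edgeR called 8 lower, and over the omission of each library it called 4 to 8 ligands. Within tdT+ cells 7 ligands were called lower, with a median log2 fold change of -1.54, and within tdTneg cells 1 was, with a median of -0.24. Of all genes 5.54% and 1.45% were called lower in these comparisons, with medians of -0.07 and -0.13. By edgeR the effect of tdT was called to differ between the populations for 0 ligands, against 0.389% of all genes. Where the unadjusted p-value was under 0.05, 1 was higher and 5 were lower, against 4.77% and 7.63% of all genes. DESeq2 called 3 lower, against 4.03% of the genes to which it gave an adjusted p-value. *Postn* (periostin, a ligand of alpha v integrins) was at 3521.5 to 8299.6 CPM in CD49f+CD34+ and at 332.5 to 2125 CPM in CD49f+CD34+SCA-1+ libraries, a 5.57-fold difference (log2 fold change -2.48, edgeR adjusted p = 0.00216). *Ccn2*, a matricellular protein, was at 356 to 607 against 28.0 to 317 CPM (log2 fold change -2.21, adjusted p = 0.000797). *Npnt* (nephronectin, the ligand of alpha8beta1) was at 105 to 286 against 21.4 to 76.7 CPM (log2 fold change -1.98, adjusted p = 0.000368). The other 4 called ligands were *Tnc* (-2.17), *Svep1* (-2.05), *Tgfb3* (-1.49) and *Vtn*, and they were named after their values had been seen. The fitted log2 fold change of *Vtn*, -8.65, rests on the 3 CD49f+CD34+ libraries with 437 to 973 CPM, since the other 3 and all 5 CD49f+CD34+SCA-1+ libraries were at 0.289 to 2.75 CPM. In the same 3 libraries *Fn1* was high, and *Fn1* did not pass the test between the populations (edgeR adjusted p = 0.103).

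Inside the cell, 1 of 20 integrin activators and actin linkers was called higher (*Fermt3*, 1.55) and 4 lower, among them the tensins *Tns2* (-1.345), *Tns1* (-1.06) and *Tns3* (-1.01), which link integrins to actin. Within tdT+ cells 5 of the 20 were called lower, with a median of -0.21, and within tdTneg cells none was called by edgeR, with a median of 0.27, 5 higher and 5 lower where the unadjusted p-value was under 0.05, and 1 higher by DESeq2. Of all genes, 5.54% were called lower within tdT+ and 4.74% were called within tdTneg cells. The other tensin gene of the list, *Tns4*, was not called as the mean over tdT status (0.25, edgeR adjusted p = 0.369). *Tns1* was at 481 to 800 CPM in CD49f+CD34+ and at 213 to 458 CPM in CD49f+CD34+SCA-1+ libraries, without overlap (edgeR adjusted p = 0.00129). The talins, the other kindlins, vinculin and the Ilk complex were not called in the fit of all 11 libraries. Of 22 focal adhesion signalling genes, *Ptk2b* (1.08, the kinase Pyk2) and *Lpxn* (2.21) were called higher and *Nedd9* (-1.34) and *Tgfb1i1* (-1) lower. *Ptk2b* was at 44.2 to 72.1 against 111 to 186 CPM. Of 15 partners and inhibitors, *Plaur* (1.375) was called higher and *Kank2* (-1.12) and *Dab2* (-1.46) lower. The median log2 fold changes of these 3 lists were 0.08, 0.05 and -0.26, and 25%, 18.2% and 20% of their genes were called, against 11.6% of all genes tested. With tdT+CD49f+CD34+ replicate 2 omitted, 6 (2 linkers higher and 4 lower), 3 and 3 genes were called, and *Tgfb1i1* was not among them. Over the omission of each library 2 to 6, 2 to 4 and 1 to 3 genes were called. *Fermt3*, *Lpxn* and *Ptk2b* are known from blood cells, and in the same comparison 6 of 6 T cell and 5 of 6 Langerhans cell markers were called higher. Within tdT+ cells, where *Ptk2b* was called (1.28), 5 of 6 T cell and 0 of 6 Langerhans cell markers were called higher, against 2.91% of all genes. Within tdTneg cells, where *Lpxn* was called (2.69), 5 of 6 and 4 of 6 were, against 3.29% of all genes. The Langerhans cell markers summed to 16.4 to 416 CPM in CD49f+CD34+ and to 287 to 776 CPM in CD49f+CD34+SCA-1+ libraries, and the part of these cells in the 3 genes was not tested. Apart from *Tns1* and *Ptk2b*, the genes of these 3 lists were named after their values had been seen.

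**Figure D5:**
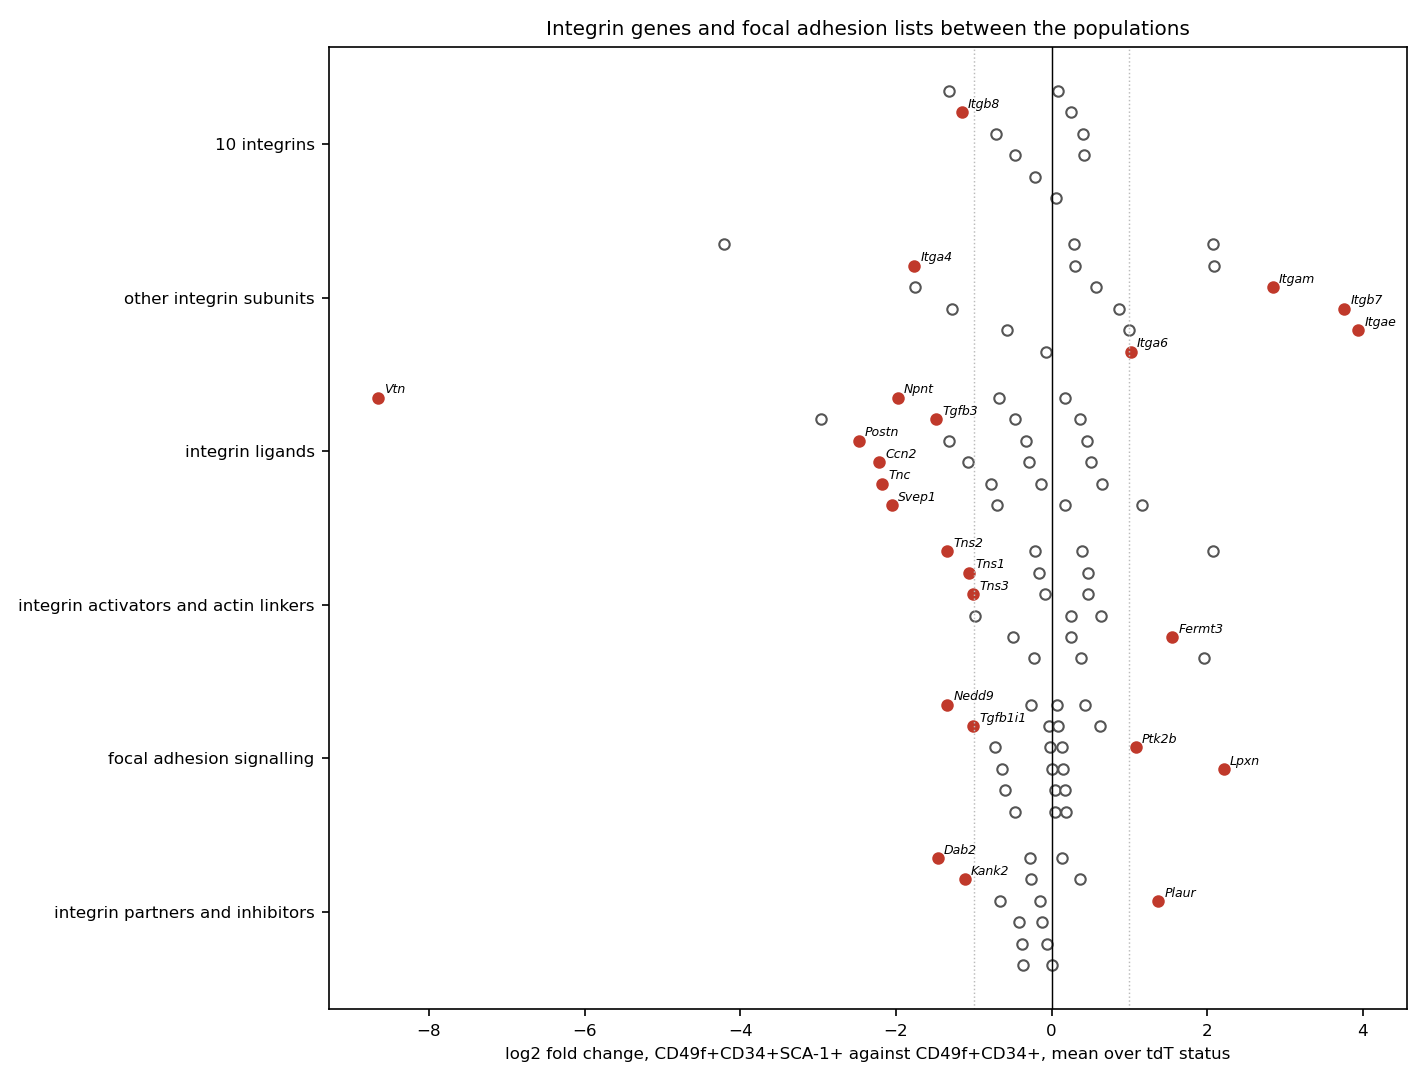
Log2 fold change of the CD49f+CD34+SCA-1+ over the CD49f+CD34+ population (mean over tdT status, edgeR) for the 10 integrins and for 5 lists of integrin and focal adhesion genes; each point is a gene (1 linker is not drawn), red points with a name were called, and the vertical spread within a list carries no value. Among the ligands all 7 called genes lie to the left of 0, and among the other integrins *Itgae* and *Itgb7* lie farthest to the right.

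Between tdT+ and tdTneg CD49f+CD34+SCA-1+ cells, where *Itga5* differed, 13 genes of the ligand, linker, signalling and partner lists were called of 81 tested, and all 13 were lower in tdT+ cells, where 2.31% of all genes were called. They were 4 ligands (*Tnc*, *Mfge8*, *Lamb2* and *Ccn2*), 3 linkers (*Actn1* and *Tns2* among them), 4 signalling genes (*Fyn*, *Nedd9*, *Tgfb1i1* and *Fblim1*) and 2 partners (*Kank2* and *Dab2*), on the log2 scale from -1.22 for *Lamb2* to -3.45 for *Dab2*. Apart from *Ccn2*, these genes, and *Parvb* and *Plaur* below, were named after their values had been seen. Of the 470 genes called in this comparison, 419 were lower in tdT+ cells. With tdT+CD49f+CD34+ replicate 2 omitted, 13 genes were again called lower: *Lamb2* and *Fblim1* were no longer called (adjusted p = 0.0566 and 0.0514), and *Parvb* and *Plaur* were (0.0356 and 0.0154). *Mfge8*, a ligand of alpha v integrins, differed by -2.435 (edgeR adjusted p = 0.00126) and *Actn1*, which encodes an alpha-actinin that binds integrin tails, by -1.85 (adjusted p = 0.00243). In the same comparison 2 of 6 endothelial markers (*Egfl7* and *Tek*) and 3 of 7 bulge markers were called lower in tdT+ cells, the latter *Cd34* (-3.68), *Lhx2* (-2.69) and *Lgr5* (-2.31), and DESeq2 called 3 and 6 lower. At an unadjusted p-value under 0.05 in edgeR, 6 of 6 endothelial and 6 of 7 bulge markers were lower, against 9.42% of all genes. Called lower were 2.06% of all genes by edgeR and 5.34% of those with an adjusted p-value by DESeq2. The 7 bulge markers summed to 3331 to 5419 CPM in tdT+ and to 4298 and 5248 CPM in tdTneg libraries, of which *Krt15* made up 3015 to 5034 and 3421 and 3739 CPM. The other 6 summed to 265, 316 and 385 CPM against 877 and 1509 CPM, without overlap. The smooth muscle markers *Acta2* (-2.90) and *Tagln* (-2.32) were not called by edgeR (adjusted p = 0.173 and 0.0807), whereas DESeq2 called 2 of 5 smooth muscle markers lower and 1 higher, and their sum was 2.27 to 10.7 CPM in tdT+ and 8.19 and 22.1 CPM in tdTneg libraries. The part of these cell types in the 13 genes was not tested. In CD49f+CD34+ cells none of the 98 tested genes of the 5 lists was called between tdT+ and tdTneg cells by edgeR, with 5 higher and 11 lower in tdT+ at an unadjusted p-value under 0.05, against 4.56% and 3.86% of all genes, and DESeq2 called 5 higher and 2 lower, against 1.7% and 0.132% of the genes to which it gave an adjusted p-value.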

How the data were processed

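RNA-seq of sorted dorsal epidermal cells was analysed in 11 libraries. The deposited files hold raw counts of reads per Ensembl gene, which the authors made with STAR and featureCounts on mm10 with the Ensembl 96 annotation. The submitters' processing notes also name bcl2fastq 2.20.0.422 and DESeq2 1.18.1. The strand setting of the counting is not given in the sources used here, so reads of overlapping antisense genes cannot be told apart. Symbols, positions and exon lengths were taken from GENCODE M21, the GRCm38 equivalent of Ensembl 96, in which all 55536 gene identifiers were found. The 1 row outside these genes, at most 0.0307% of a library, was kept out of totals and tests.

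Counts were normalized by TMM and fitted in R 4.3.3 with edgeR 4.0.16 (filterByExpr on the 4 groups, glmQLFit, glmQLFTest) with 1 mean per group over all 11 libraries, and p-values were adjusted over 20307 genes. limma 3.58.1 was loaded with edgeR, and DESeq2 1.42.0 was an alternative. The common biological coefficient of variation was 0.608. Totals were 17409131 to 46542177 counts, and 95% intervals come from the spread between libraries. Levels are TMM-normalized CPM, divided by exon length in kb where genes are compared, and log2 ratios used a prior count of 2. Ratios were compared by an exact permutation test, two-sided, over the 462 arrangements of 5 and 6 libraries. It took no account of replicate number or tdT status. Promoter windows came from RefSeq, and figures were drawn with matplotlib 3.10.9.

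Groups and replicate numbers came from the sample labels, and the values of each of 55 pairs of libraries differed. Libraries of 1 number share the age of the mice and were read as the same pool of 2 mice. The deviations from the group means correlated with a median of 0.08 (from -0.415 to 0.59) over the 15 pairs that share a number and of -0.02 over 30 other pairs. P-values measure the spread between these pools.

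The members, the lists and the markers were chosen with earlier results of these data known. Genes named were the 10 members, *Itga6* and *Itgb4*, up to 3 called genes with the largest rise and up to 3 with the largest fall of each list whose libraries did not overlap, the 2 genes nearest to each member in pattern, and the markers. Others are marked in the text as chosen after their values were seen, and 1 linker gene that the counts include is not reported here. Alternatives were DESeq2, fits limited to the groups compared, the replicate number as a block, RLE size factors, calls without a fold threshold, a looser and a stricter filter, another prior count, and omission of each library.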

Additional observations from a re-analysis of the deposited data

Results flagged for a closer look

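The effect of tdT on *Itga5* differed between the populations by -2.39 on the log2 scale, by the interaction term of the edgeR fit (adjusted p = 0.0202), with -2.54 in CD49f+CD34+SCA-1+ and -0.15 in CD49f+CD34+ cells. All 3 tdT+CD49f+CD34+SCA-1+ libraries were below both tdTnegCD49f+CD34+SCA-1+ libraries.

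The row outside the Ensembl genes, which entered no comparison, had a median of 238 CPM over the 6 tdT+ libraries, above the 2.54 to 4.89 CPM of the 5 tdTneg libraries. The library labelled tdT+CD49f+CD34+ replicate 2 held 37 counts of it, or 2.05 CPM.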

How the results depend on the processing

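The calls of *Itgb8* between the populations and within tdT+ cells and the 3 calls of *Itga5* were kept with DESeq2, RLE size factors and both other filters. Without a fold threshold 3 members were called between the populations and 2 within tdT+ cells. With only the groups compared, 2 were called between tdT+ and tdTneg in CD49f+CD34+SCA-1+ cells, *Itga5* and *Itga9*. With the replicate block no member was called within tdT+ cells (0, with *Itgb8* at -1.37 and edgeR adjusted p = 0.0541), and it changed no other call of a member. Omitting 1 library at a time gave 0 to 1 members between the populations (0 without tdTnegCD49f+CD34+SCA-1+ replicate 1), 0 to 2 within tdT+, 0 to 1 within tdTneg (0 without either tdTnegCD49f+CD34+SCA-1+ library) and 0 to 1 for the interaction of tdT and population. Where this left 1 tdTnegCD49f+CD34+SCA-1+ library, its spread was taken from the other groups.

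The log2 fold change between the populations changed sign for *Itga9* with the replicate block (0.20) and, over the omissions, for *Itga2* (-0.052 to 0.23), *Itga9* (-0.51 to 0.63) and *Itgav* (-0.021 to 0.15). None of these was called. The ratio of *Itga9* to *Itga3* changed sign with the replicate block (-0.25), within tdT+ cells (-1.56) and over the omissions (-0.76 to 0.99), that of *Itgav* to *Itgb1* within tdT+ cells (0.016), and that of *Itga5* to *Itga3* within tdTneg cells (1.65) and over the omissions (-0.66 to 0.14).

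Without a fold threshold the lists had 8 called linkers, 8 signalling genes and 5 partners. Over the omissions 3 to 6 other integrin subunits, 4 to 8 ligands, 2 to 6 linkers, 2 to 4 signalling genes and 1 to 3 partners were called. Over all genes, DESeq2 called 3143 within tdT+ cells (edgeR 1715), 2071 within tdTneg cells (963), 332 between tdT+ and tdTneg in CD49f+CD34+ cells (2), 1126 in CD49f+CD34+SCA-1+ cells (470) and 777 for the difference of effects (79). For the last 3 of these comparisons, in that order, keeping genes with a count of 1 in any library gave 166, 885 and 568 called genes and keeping those with 10 in every library 22, 544 and 243. With only the groups compared, 1452 genes were called within tdTneg cells, 0 between tdT+ and tdTneg in CD49f+CD34+ cells and 885 in CD49f+CD34+SCA-1+ cells. In CD49f+CD34+ cells RLE size factors gave 5 and the replicate block 4, and RLE gave 117 for the difference of effects. The looser filter moved the median log2 fold change of all genes between the populations from -0.09 to -0.44. The cause of these shifts was not tested. DESeq2 gave no p-value for *Itga9*, and the stricter filter left it out.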
